A study of Danio rerio with 6 samples.

Results

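The group described here is 6 genes that encode sequence-specific DNA-binding proteins other than nuclear receptors: nrf1, sp3a, nfyal, znf281a, znf384l and znf511. They were chosen by gene name, as the NRF1, SP, NF-Y and zinc finger factors among the 99 genes of the deposited table. Messenger RNA was sequenced from AB-strain zebrafish embryos collected 4.5 hours post fertilization (30% epiboly), when the blastoderm is spreading over the yolk. MZdgcr8 embryos, which lack maternal and zygotic Dgcr8, were compared with wild-type embryos. Each genotype had 3 libraries, and every library came from 50 pooled whole embryos, so lower values in fewer cells and less RNA per cell cannot be told apart. Separate clutches are not stated in the labels, and the p-values reflect no more than library-to-library spread, part of which may be technical. Transcripts of dgcr8 itself were not analysed here, which leaves the genotype labels unchecked.

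Dgcr8 binds RNA together with the nuclease Drosha, and canonical microRNA precursors are not cut from their primary transcripts without it. In zebrafish, microRNAs made at the onset of zygotic transcription take part in clearing maternal messenger RNAs, a clearance that is under way at this stage. The factors themselves are broadly used regulators. NRF1 (nuclear respiratory factor 1) binds GC-rich palindromic promoter elements and is known for its control of nuclear genes for mitochondrial respiration. SP3 binds GC boxes through C2H2 zinc fingers and can activate or repress. NF-YA is the subunit that gives the trimeric NF-Y complex its CCAAT-box specificity, and in zebrafish NF-Y takes part with homeodomain proteins in early gene activation.

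Among the zinc finger genes, znf281a is related to mammalian ZNF281, a GC-rich DNA binder studied in mouse embryonic stem cells. The gene znf384l is related to mammalian ZNF384, a nuclear matrix protein that binds A/T-rich DNA. The role of ZNF511 is not described here.

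The 6 genes have the identifiers ENSDARG00000000018 (nrf1), ENSDARG00000001549 (sp3a), ENSDARG00000001621 (nfyal), ENSDARG00000000567 (znf281a), ENSDARG00000001015 (znf384l) and ENSDARG00000000760 (znf511). The table gives 1 transcript each for nrf1, znf281a and znf511, 3 each for sp3a and nfyal, and 7 for znf384l. In the separate table of gene names, the symbols NFYA, SP3 and ZNF281 each belong to 2 identifiers. The sources used here do not say how reads shared with such close copies were counted, so the levels of nfyal, sp3a and znf281a are uncertain to that extent.

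In both genotypes replicate 3 stood apart, and the levels, genotype differences and nearest genes are given with and without it. Across the 6 factors, replicates 1 and 2 of a genotype differed by at most 0.18 on the log2 FPKM scale, the largest gap being that of znf384l in MZdgcr8. Relative depth was highest in MZdgcr8 replicate 2 (1.14) and lowest in wild type replicate 3 (0.797). Counts for the factors ran from 199 for znf511 in wild type replicate 3 to 14422 for sp3a in wild type replicate 1.

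The levels of the 6 genes spanned more than an order of magnitude in every library. The unit, FPKM, counts fragments relative to transcript length and to library depth, so genes can be set side by side as far as the lengths used hold. The ratio of count to FPKM implies lengths, relative to nrf1, of 2.89 for znf384l and 0.324 for znf511. By count znf384l exceeded znf511 in every library, with 1749 against 1069 in wild type replicate 1. The order of these genes in FPKM therefore rests on the lengths used. The highest of the 6 exceeded the lowest by 22.3, 26.0 and 16.5 times in MZdgcr8 replicates 1, 2 and 3, and by 22.9, 20.8 and 19.2 times in wild type. In MZdgcr8 the order of mean levels was sp3a (37.4 ± 19.2 FPKM), nrf1 (33.5 ± 9.44), znf281a (13.4 ± 7.36), nfyal (8.16 ± 2.10), znf511 (7.48 ± 3.80) and znf384l (1.80 ± 0.397), each with the SD over 3 libraries. In wild type the order was sp3a, nrf1, nfyal, znf281a, znf511 and znf384l, so the genotypes differed in the order of znf281a and nfyal alone, a pair whose ranges overlapped in both.

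The gene sp3a averaged 42.1 ± 17.1 FPKM and nrf1 35.3 ± 15.4 FPKM in wild type (SD, n = 3 each). These neighbours in the order overlapped in range, although sp3a was the higher in each of the 3 wild-type libraries, by 1.13 to 1.28 times. Both genes stood clear of the range of the next by mean, nfyal, at 11.9 ± 3.76 FPKM (SD, n = 3). Within a wild-type library nrf1 was above nfyal by 2.32 to 3.16 times. In wild type replicate 3, however, the next gene was znf281a, which nrf1 exceeded by 1.15 times. Among the 99 listed genes, sp3a ranked 11, 12 and 21 by FPKM in wild type replicates 1, 2 and 3.

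The middle of the order was not fixed. Wild-type means were 11.9 ± 3.76 FPKM for nfyal, 10.1 ± 4.39 FPKM for znf281a and 9.60 ± 5.40 FPKM for znf511 (SD, n = 3 each), and their ranges overlapped. In replicates 1 and 2 the order was nfyal, znf511, znf281a, while in replicate 3 it was znf281a, nfyal, znf511. The lowest, znf384l, averaged 1.97 ± 0.700 FPKM in wild type (SD, n = 3) and lay below the range of znf511. Without replicate 3 the order was sp3a (48.5 FPKM), nrf1 (38.9), znf511 (9.67), nfyal (9.35), znf281a (9.12) and znf384l (2.02) in MZdgcr8, as means of 2 libraries. The corresponding wild-type means were 51.9 FPKM for sp3a, 44.2 for nrf1, 14.1 for nfyal, 12.7 for znf511, 7.60 for znf281a and 2.38 for znf384l. With 3 libraries shared by all genes, an exact paired test between neighbours could not pass 0.05, so overlap alone is given.

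**Figure D1:**
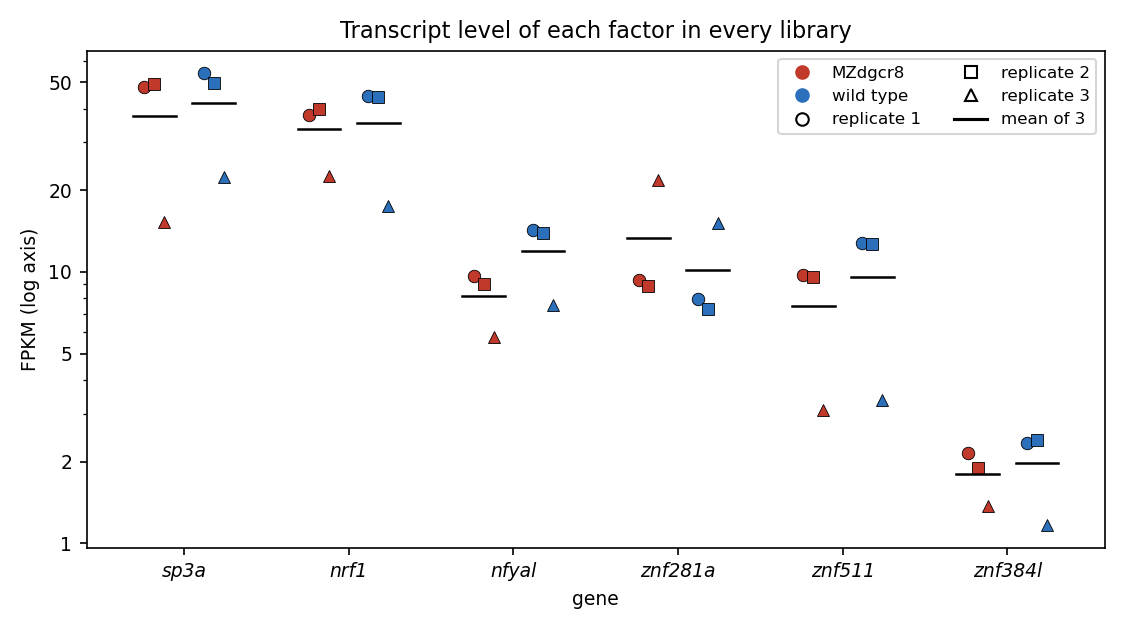
FPKM on a log axis for each of the 6 genes, with 1 point per library, MZdgcr8 to the left of wild type, and a bar at the mean of 3 libraries. Replicate 3 (triangles) lies below replicates 1 and 2 for every gene shown except znf281a, for which it lies above them at 21.9 FPKM in MZdgcr8 and 15.2 FPKM in wild type.

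The question between MZdgcr8 and wild type is whether transcript levels differ at epiboly in embryos without Dgcr8. None of the 6 factors passed the edgeR quasi-likelihood test over the 6 libraries, nor did any other gene tested (0 of 67, 0.0%). The test covered genes that averaged 1 FPKM or more over the 6 libraries, which all 6 factors did, with Benjamini-Hochberg adjustment over all 67 and a threshold of 0.05. At an unadjusted p under 0.05 there were 5 genes in edgeR, with 0 of the 6 factors among them. DESeq2 at the same depths and limma on log2(FPKM + 1) also called 0 genes. No factor had MZdgcr8 values that all lay on one side of the wild-type values, where 17.9% of the tested genes did. Results for replicates 1 and 2 alone follow for each gene, since that fit called 43 of the 67 genes (64.2%), 16 higher (23.9%) and 27 lower (40.3%) in MZdgcr8.

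At the authors' depth, the largest edgeR log2 change among the 6 was that of nfyal. This held with and without the block and in replicates 1 and 2 alone. The gene nfyal is described as NF-YA like and is 1 of 2 identifiers with the symbol NFYA. With RLE scaling over 6 libraries znf281a had the larger change (log2 0.52, against -0.45 for nfyal). Levels of nfyal were 9.68, 9.02 and 5.77 FPKM in MZdgcr8 replicates 1, 2 and 3. In wild type replicates 1, 2 and 3 they were 14.2, 13.9 and 7.57 FPKM. Each MZdgcr8 library was the lower of its numbered pair, at 0.680, 0.648 and 0.762 times wild type, but the groups overlapped because wild type replicate 3 lay below MZdgcr8 replicates 1 and 2. Over 6 libraries the means were 8.16 ± 2.10 FPKM in MZdgcr8 and 11.9 ± 3.76 FPKM in wild type (SD, n = 3 each), a log2 change of -0.55 ± 0.39 (SE, adjusted p = 0.898 in edgeR).

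With the replicate number as a block, the change of nfyal was -0.52 ± 0.11 on the log2 scale and still uncalled in edgeR (adjusted p = 0.0647). The blocked edgeR fit called 5 of 67 genes (7.46%), none of the 6 factors among them. In it 21 of the 67 genes had an unadjusted p under 0.05, with 2 of the 6 factors, nfyal and znf281a, among them. The blocked DESeq2 fit called nfyal lower (log2 -0.52, adjusted p = 0.0197), one of 13 genes (19.4%). In replicates 1 and 2 alone nfyal fell by 0.59 ± 0.08 on the log2 scale (adjusted p = 0.00129 in edgeR). It was lower in every fit run, and DESeq2 with its own size factors and no block called it as well (adjusted p = 0.0450), one of 7 genes (10.4%). A fit with a term for replicate 3 instead of the block called 26 genes in edgeR (38.8%), nfyal (log2 -0.52, adjusted p = 0.0145) and znf281a (log2 0.35, adjusted p = 0.0439) among them.

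The gene znf281a was the only one of the 6 with higher values in MZdgcr8 in each numbered pair. Its levels were 9.37, 8.86 and 21.9 FPKM in MZdgcr8 replicates 1, 2 and 3, against 7.92, 7.29 and 15.2 FPKM in wild type. Wild type replicate 3 lay above MZdgcr8 replicates 1 and 2, so the groups overlapped. The means were 13.4 ± 7.36 FPKM in MZdgcr8 and 10.1 ± 4.39 FPKM in wild type (SD, n = 3 each), a log2 change of 0.40 ± 0.51 (SE, adjusted p = 0.898 in edgeR). The block gave 0.35 ± 0.12 with no call (adjusted p = 0.137 in edgeR), and in replicates 1 and 2 alone znf281a rose by 0.26 ± 0.09 (adjusted p = 0.0394 in edgeR).

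For znf511, MZdgcr8 replicates 1, 2 and 3 had 9.75, 9.58 and 3.09 FPKM, against 12.8, 12.6 and 3.37 FPKM in wild type. Both replicate 3 values lay far below all others, and the genotypes were separated within replicates 1 and 2. The log2 change was -0.36 ± 0.70 over 6 libraries (SE, adjusted p = 0.898 in edgeR). The fit of replicates 1 and 2 alone gave a call, in which znf511 fell by 0.40 ± 0.09 (adjusted p = 0.00711 in edgeR).

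The gene znf384l was at 2.15, 1.89 and 1.37 FPKM in MZdgcr8 replicates 1, 2 and 3, against 2.35, 2.40 and 1.17 FPKM in wild type. It was lower in MZdgcr8 in replicates 1 and 2 and higher in replicate 3. The change was -0.13 ± 0.42 over 6 libraries and -0.24 ± 0.10 in replicates 1 and 2 (SE, log2), without a call in either edgeR fit (adjusted p = 0.917 and 0.0747).

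The gene nrf1 was at 37.9, 39.9 and 22.7 FPKM in MZdgcr8 replicates 1, 2 and 3, against 44.4, 44.0 and 17.5 FPKM in wild type. Its sign differed between replicate 3 and the others, and over 6 libraries the log2 change was -0.08 ± 0.45 (SE, adjusted p = 0.930 in edgeR). Within replicates 1 and 2 nrf1 fell by 0.18 ± 0.07 (adjusted p = 0.0467 in edgeR). That call was lost with TMM scaling (log2 -0.08, adjusted p = 0.331 in edgeR), a fit that called 61.2% of the tested genes.

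The most abundant factor, sp3a, was at 47.9, 49.1 and 15.3 FPKM in MZdgcr8 replicates 1, 2 and 3, against 53.9, 49.9 and 22.4 FPKM in wild type. The values in replicates 1 and 2 were close, and the gap was wider in replicate 3, where MZdgcr8 was at 0.682 times wild type. Log2 changes were -0.17 ± 0.55 over 6 libraries and -0.10 ± 0.07 in replicates 1 and 2, with no call in edgeR (adjusted p = 0.917 and 0.219).

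**Figure D2:**
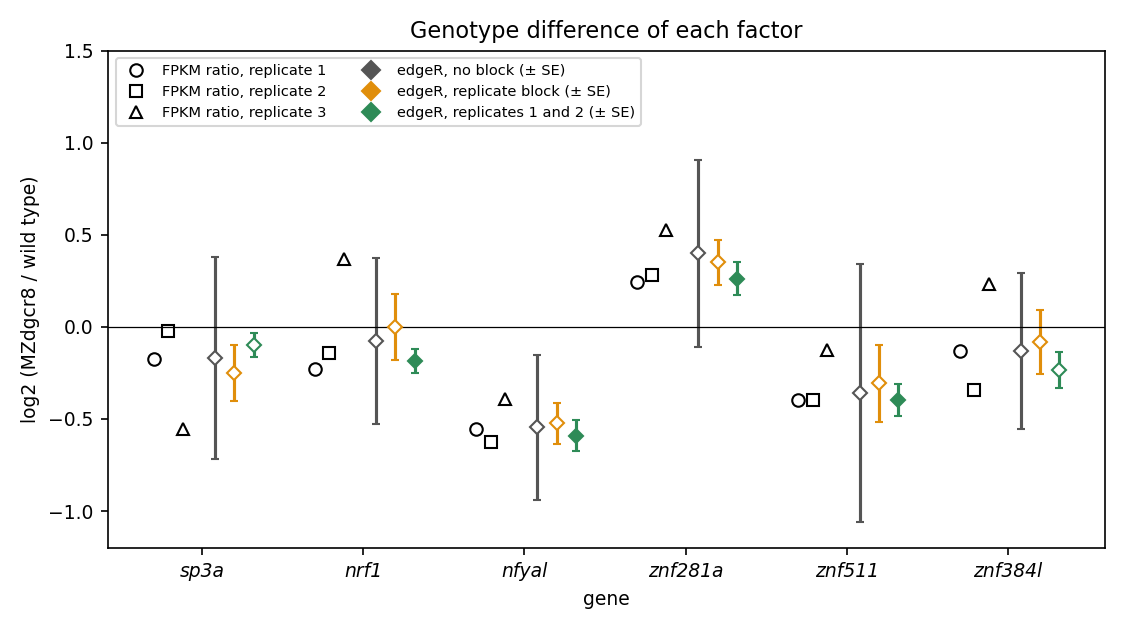
Log2 ratio of MZdgcr8 to wild type for each gene: open black symbols are FPKM ratios of same-numbered libraries, and diamonds are edgeR estimates with standard errors (filled where the adjusted p was under 0.05). Estimates for nfyal lie between -0.59 and -0.52 in the fits shown, with filled diamonds in replicates 1 and 2 alone for nrf1, nfyal, znf281a and znf511.

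Set against all genes tested, the 6 factors as a group lay near the middle. Their median log2 change over 6 libraries was -0.15, against -0.16 for the 67 genes. Within replicates 1 and 2 it was -0.21 against -0.15, with 4 of the 6 called, 1 higher and 3 lower, where the fit called 64.2% of all tested genes. The genotypes did not overlap in replicates 1 and 2 for any of the 6, a separation that 89.6% of the tested genes shared. Lower values in 3 of 3 pairs were seen for sp3a, nfyal and znf511, and 43.3% of tested genes did the same. Higher values in 3 of 3 pairs were seen for znf281a and 19.4% of tested genes.

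Scaling moved all genes together, so the changes were also expressed relative to the median gene of the same fit. In replicates 1 and 2 that median was -0.15 at the authors' depth, -0.05 with TMM and -0.62 with library medians set equal. Relative to it, nfyal was at -0.44 and znf281a at 0.42 at the authors' depth, with -0.44 and 0.41 under each other scaling. Such near-equal values follow from the subtraction, because a scaling shifts every gene alike. The gene znf511 was at -0.24, znf384l at -0.08, nrf1 at -0.03 and sp3a at 0.06 relative to the median gene at the authors' depth. On the unshifted scale znf281a had a negative sign with medians set equal (log2 -0.20, adjusted p = 0.0907 in edgeR) and sp3a a positive one with TMM (0.0070).

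Single libraries decided several signs over the 6 libraries. Without MZdgcr8 replicate 3, which leaves wild type as the only genotype with a replicate 3, the log2 change was 0.14 for nrf1, 0.20 for sp3a, -0.15 for znf281a, 0.032 for znf384l and 0.0094 for znf511. For nfyal it was -0.35, the same sign as with all libraries. Without wild type replicate 1 the values were 0.12 for nrf1, 0.050 for sp3a and 0.013 for znf384l, and without wild type replicate 2 they were 0.11 for nrf1 and 0.034 for znf384l. None of these values passed the edgeR threshold. Each omission gives replicate 3 unequal weight in the genotypes, and the median of all tested genes moved too. From -0.16 over 6 libraries it went to 0.0094 without MZdgcr8 replicate 3, the value of znf511 itself. It was -0.085 without wild type replicate 1 and -0.071 without wild type replicate 2. Of the 67 genes, 23 were positive over 6 libraries, 34 without MZdgcr8 replicate 3, and 31 without wild type replicate 1 or without wild type replicate 2. For the 6 factors the counts were 1, 4, 4 and 3 in that order. Without MZdgcr8 replicate 3, znf281a moved down while the median gene moved up. Whether the turned signs are particular to the factors was not tested.

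Replicate 3 differed from replicates 1 and 2 in the level of all 6 factors, at the authors' depth by more than the genotypes differed in any of them. With genotype in the model, 52 of the 67 genes were called between replicate 3 and the others (77.6%), 10 higher (14.9%) and 42 lower (62.7%). Replicate 3 was set against the others because it was already known to stand apart in these data. The calls and p-values of this contrast describe that shift and do not test it. Of the factors, 5 were lower in replicate 3 and znf281a was higher. The gene znf281a was 2.19-fold higher in replicate 3 (edgeR log2 1.13 ± 0.10, adjusted p = 0.000575), with FPKM ratios of 2.40 in MZdgcr8 and 2.00 in wild type.

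The gene znf511 fell the most, being 3.43-fold lower in replicate 3 (log2 -1.78 ± 0.16, adjusted p = 0.000606 in edgeR). Next were sp3a at 2.70-fold lower (log2 -1.43 ± 0.14) and nrf1 at 2.07-fold lower (log2 -1.05 ± 0.15). The changes of nfyal (log2 -0.79 ± 0.09) and znf384l (-0.78 ± 0.16) were at the median of all tested genes, which was itself -0.78. Adjusted p in edgeR was between 0.000575 and 0.00684 for the 6 genes, and with TMM the call of znf384l was lost (log2 -0.26, adjusted p = 0.0891), where 68.7% of tested genes were called. TMM moved the median gene to -0.25. Relative to the median gene, which takes out the shared shift by construction, znf281a stood at 1.92 at the authors' depth and 1.91 with TMM. The gene znf511 stood at -0.99 relative to the median gene at the authors' depth.

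**Figure D3:**
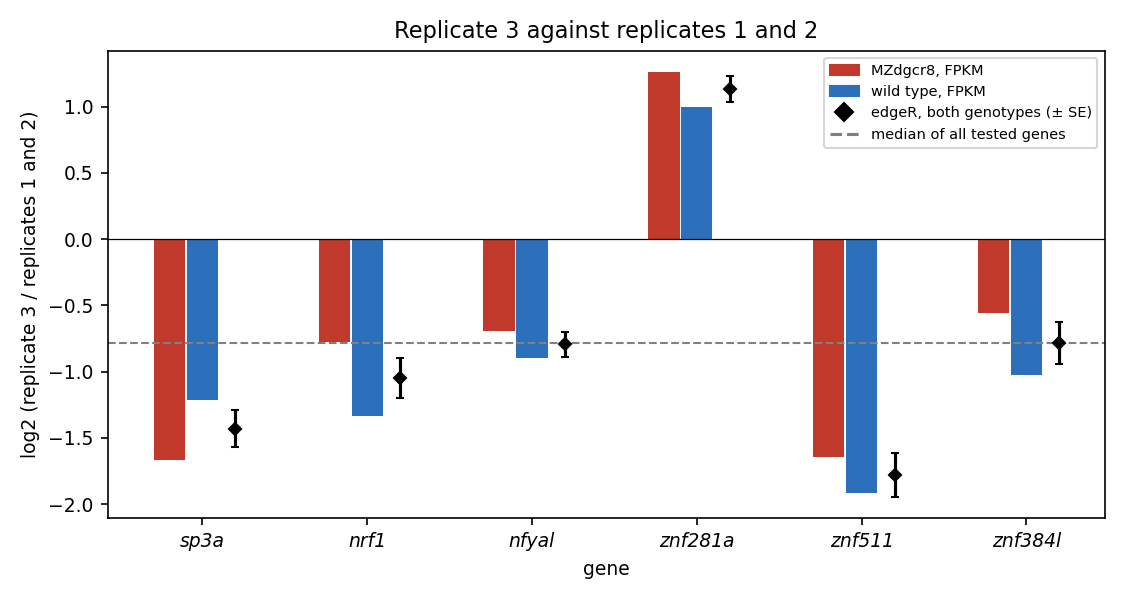
Log2 ratio of replicate 3 to the mean of replicates 1 and 2 for each gene: bars are FPKM ratios within MZdgcr8 (left) and wild type, and diamonds are edgeR estimates over both genotypes with standard errors. Only znf281a lies above 0, and the edgeR estimates of znf511 (-1.78), sp3a (-1.43) and nrf1 (-1.05) lie farthest below it, the dashed line being the median of all tested genes (-0.78).

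The only enveloping-layer marker in the table, krt97, a keratin of the outermost embryonic cell layer, moved with replicate 3 as well. It was at 31.1, 26.9 and 331 FPKM in MZdgcr8 replicates 1, 2 and 3, against 145, 144 and 302 FPKM in wild type. It was 1 of 9 such markers looked for, and of 5 markers of the yolk syncytial layer 1 was found, slc40a1. Its values were 0.322, 0.371 and 0.263 FPKM in MZdgcr8 replicates 1, 2 and 3, against 0.0814, 0.104 and 0.370 FPKM in wild type. The part of cell composition, embryo age or batch in the shift of replicate 3 was not tested.

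In the make-up of the group, the share of znf281a changed with the replicate more than with the genotype, while that of nfyal differed more between the genotypes. Of the FPKM summed over the 6 genes, znf281a held 8.03%, 7.49% and 31.2% in MZdgcr8 replicates 1, 2 and 3, against 5.84%, 5.60% and 22.6% in wild type. The share of sp3a was 41.0%, 41.5% and 21.8% in MZdgcr8 and 39.7%, 38.3% and 33.4% in wild type. Together nrf1 and sp3a were the top pair in every library other than MZdgcr8 replicate 3, where znf281a took the second place below nrf1. The summed level was 117, 118 and 70.0 FPKM in MZdgcr8, against 136, 130 and 67.2 FPKM in wild type. The share of nfyal was 8.29%, 7.62% and 8.24% in MZdgcr8 replicates 1, 2 and 3, against 10.5%, 10.7% and 11.3% in wild type, values given as a description.

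**Figure D4:**
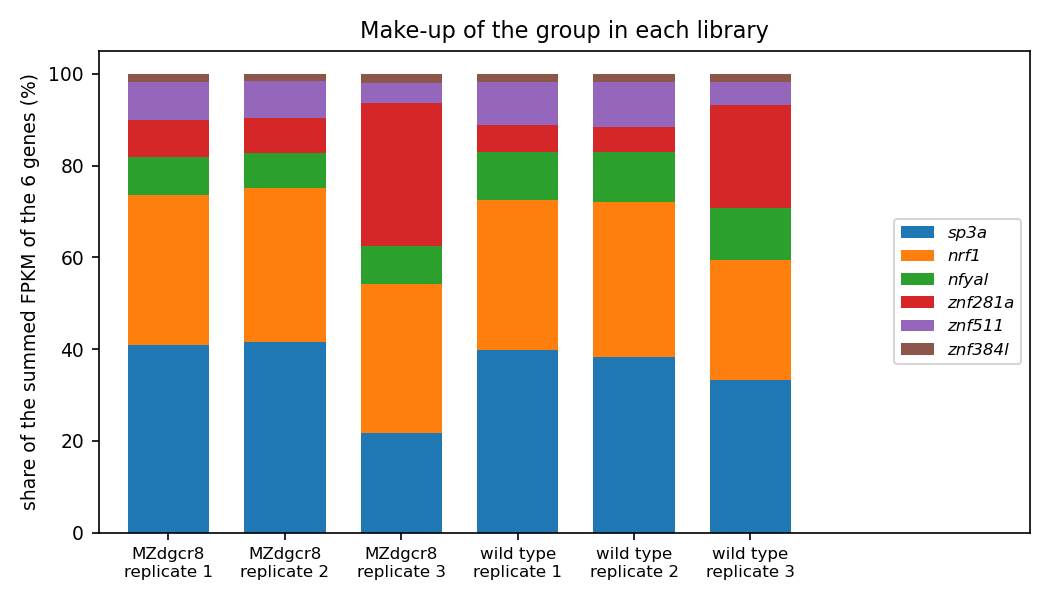
Share of the FPKM summed over the 6 genes held by each gene, in percent, for the 3 MZdgcr8 libraries (left) and the 3 wild-type libraries. The share of znf281a is 31.2% and 22.6% in the replicate 3 libraries and at most 8.03% in the others.

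An interaction term compared the genotype difference in replicate 3 with that in replicates 1 and 2. It was called for 28 of the 67 genes (41.8%). Of the 6 factors, nrf1 and sp3a passed, in opposite directions. For nrf1 the MZdgcr8 over wild type ratio was higher in replicate 3, at 1.29 times against 0.854 and 0.906 times in replicates 1 and 2 (edgeR interaction log2 0.56 ± 0.11, adjusted p = 0.00865). The call was lost with TMM (0.39, adjusted p = 0.0516 in edgeR), under which 55.2% of tested genes were called. For sp3a the ratio was lower in replicate 3, at 0.682 times against 0.887 and 0.985 times (-0.45 ± 0.11, adjusted p = 0.0199 in edgeR). The gene nrf1 exceeded sp3a in MZdgcr8 replicate 3, by 1.48 times, and was below sp3a in the other 5 libraries, at 0.781 to 0.882 times.

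For nfyal the interaction was 0.20 ± 0.14, for znf281a 0.26 ± 0.14, for znf511 0.27 ± 0.17 and for znf384l 0.46 ± 0.19 (log2, SE), none of which passed in edgeR. The error of all these interaction terms rests on replicates 1 and 2 alone, replicate 3 being a single library in each genotype. The terms therefore cannot tell a changed genotype difference from the spread of single libraries.

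Profiles over the 6 libraries were compared by the root mean square difference of log2(FPKM + 1) values, each gene centred on its own mean. The genes most like nrf1 were mier1b (0.108), pms1 (0.117) and slc39a13 (0.145), where the median distance of nrf1 to the tested genes was 0.488. The 3 nearest to sp3a were adam8a (0.144), skap2 (0.159) and znf511 (0.179), and the 3 nearest to znf511 were pcgf1 (0.141), sp3a (0.179) and unk (0.194). Thus sp3a and znf511 were each among the 3 nearest genes of the other, the only such pair within the group.

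For nfyal the nearest were lcmt2 (0.127), upf3b (0.156) and slc39a13 (0.160), and for znf384l they were kifc1 (0.109), ube2h (0.114) and scrib (0.117). The 1 FPKM added before the log narrows the changes of genes at low levels, znf384l most of the 6. Without it, the wild-type log2 ratio of replicate 3 to the mean of replicates 1 and 2 was -1.03 for znf384l and -0.56 for kifc1. In MZdgcr8 the same ratio was -0.56 for znf384l and -0.54 for kifc1. For znf281a the nearest genes, arl14ep (0.335), dzip1 (0.389) and bysl (0.403), were farther from it than the nearest genes of any other factor were, and all 3 had higher FPKM in replicate 3 in both genotypes. The nearest genes depended on replicate 3. Over the 4 libraries of replicates 1 and 2, a setting chosen after the data were seen, 1 of the 18 places was held by the same gene for the same factor (skap2 for sp3a), and the nearest were kifc1 for nrf1 (0.026), mctp2a for sp3a (0.034), bysl for nfyal (0.044), daxx for znf281a (0.069), srrm1 for znf384l (0.020) and puf60b for znf511 (0.032).

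Of the listed genes, 3 lie next to one of the 6 factors in the RefSeq annotation of assembly GRCz12tu, which may not be the build the authors used. The gene adam8a overlaps znf511 there, ube2h is a protein-coding neighbour of nrf1, and kifc1 is one of the gene carrying znf384l as a synonym. Reads of znf511 and adam8a could therefore be split or shared, since the sources used here do not say how strand was handled. The same annotation also gives ube2h as a synonym of nrf1, and LOC141376046 overlaps sp3a there. The values of adam8a were 5.71, 5.73 and 1.07 FPKM in MZdgcr8 replicates 1, 2 and 3, against 4.99, 5.52 and 1.48 FPKM in wild type.

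Related genes of the transcription machinery were looked up from 9 lists. For 4 of them no gene was in the table. These were zygotic genome activation factors, cofactors of NRF1, SP and NF-Y, cell cycle genes under NF-Y and mitochondrial genes under NRF1. The 10 genes listed under NF-Y and the 10 under NRF1 could therefore not be examined as targets. No targets of the other factors were listed, and whether the deposited genes include further targets was not examined. The NF-Y list of 5 subunits was represented by nfyal alone, the NRF1 and SP/KLF list of 24 by nrf1 and sp3a, and the zinc finger list of 11 by the 3 zinc finger genes. Of the nuclear receptor and corepressor list 3 genes were tested, and in replicates 1 and 2 all 3 were called higher, nr4a1 (log2 1.54) and thraa (log2 1.13) among them, in a fit that called 64.2% of all tested genes and 23.9% as higher. Both general transcription factor genes in the table were called higher in that same fit (23.9% of all tested genes), ell (log2 1.60) and gtf2e1 (log2 0.98). Over 6 libraries, edgeR without the block called 0 of these 5 genes. The blocked edgeR fit, which called 7.46% of all tested genes, called 1 from each of these lists, ell (log2 1.48, adjusted p = 0.0321) among them. Replicate 3 has 1 library per genotype. There MZdgcr8 was lower for nr4a1 (0.283 against 0.893 FPKM in wild type) and thraa (0.392 against 0.563 FPKM). It was higher for ell (11.1 against 4.86 FPKM) and gtf2e1 (30.4 against 22.0 FPKM).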

How the data were processed

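The authors deposited FPKM values and counts for 99 genes per library, per the file headers. The submitters' processing notes list Bowtie 0.12.2, HISAT2 2.0 and StringTie 1.3.0, with no role for any of them. The build there is a mouse build while identifiers are Ensembl zebrafish ones, so no coordinates or sequences are given. The table holds part of each library (358811 to 576050 counts), so library sizes came from the ratio of count to FPKM over the 58 genes whose counts exceeded 200 in each library. None of the 594 deposited count values is 1, 2 or 3, so 1 count may not be 1 read, and counting intervals are not given. edgeR 4.0.16 (R 4.3.3, quasi-likelihood, checked on simulated data) was fitted to the 67 genes averaging 1 FPKM or more. The simulated libraries varied less than the full set of real ones and held larger changes than the factors showed, without a shift of replicate 3. That check therefore does not show what the fit over all libraries could detect. Limma 3.58.1 and DESeq2 1.42.0, other scalings, pseudocounts (0.1 and 5 FPKM), minima and left-out libraries were alternatives. Each standard error was the log2 change divided by the root of its F value.

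Samples were grouped by title. Same-numbered libraries deviated together from their group means (Pearson 0.77, 0.76 and 0.80 over genes), and the numbers were treated as pairing them. Replicates 1 and 2 correlated across numbers too (0.71 and 0.82), the highest value being MZdgcr8 replicate 1 with wild type replicate 2. Because replicate 3 stood apart, centring on the mean of 3 libraries makes replicates 1 and 2 correlate whatever their numbers. The correlations therefore cannot show that replicates 1 and 2 pair by number, which the block and the numbered pairs assume. The members, lists and tests were chosen with earlier results of these data known. All 6 factors are named, with the 3 genes nearest to each and genes of the lists found in the table; 1 such gene is not reported here.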

Additional observations from a re-analysis of the deposited data

Results flagged for a closer look

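The genotype difference of nrf1 changed between replicate 3 and replicates 1 and 2, by an interaction of 0.56 on the log2 scale in edgeR, with opposite signs in the 2 sets. That of sp3a changed by -0.45, with MZdgcr8 lower in both sets. At the authors' depth the term was called for 41.8% of all tested genes. Replicate 3 is a single library per genotype, so the term cannot tell a changed genotype difference from the spread of that library. The labels do not say what the replicate number stands for, and the cause was not tested.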

How the results depend on the processing

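The count of genes called between the genotypes was 0 over 6 libraries in edgeR without the block, and it moved to 2 with RLE, 7 with DESeq2 size factors, 5 with the replicate block, 4 with the block and TMM, 13 with the block in DESeq2 and 26 with replicate set as a term. Leaving out libraries gave 0 to 43, the highest without replicate 3 (3 without MZdgcr8 replicate 3), and without replicate 3 it was 41 with TMM, 43 with counts divided by 4 and 62 with equal medians. The last 3 settings were chosen after the data were seen. The cause of these moves was not tested.

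The sign of nrf1 turned with TMM (0.023), RLE (0.049), DESeq2 size factors (0.049), limma at a pseudocount of 0.1 (0.00042) and the replicate block with TMM (0.051). Leaving out libraries gave log2 values of -0.40 to 0.14 for nrf1, -0.47 to 0.20 for sp3a, -0.79 to -0.35 for nfyal, -0.15 to 0.81 for znf281a, -0.40 to 0.034 for znf384l and -0.77 to 0.0094 for znf511. Calls were gained without replicate 3 for nrf1 (-0.18), nfyal (-0.59), znf281a (0.26) and znf511 (-0.40). With counts divided by 4 as well, these were -0.18, -0.59, 0.26 and -0.39. With TMM, nfyal (-0.48), znf281a (0.37) and znf511 (-0.29) were called, and sp3a was at 0.0070. With equal medians nrf1 (-0.65), sp3a (-0.56), nfyal (-1.05), znf384l (-0.70) and znf511 (-0.86) were called, and znf281a was at -0.20. That fit called 92.5% of all tested genes, 76.1% as lower, and its median gene was at -0.62. The other fits without replicate 3 called 64.2% of all tested genes at the authors' depth, 64.2% with counts divided by 4 and 61.2% with TMM.

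With replicate set as a term, nfyal (-0.52) and znf281a (0.35) were called. Calls of nfyal were also gained with DESeq2 size factors (-0.45) and the replicate block in DESeq2 (-0.52). The blocked edgeR fit changed no call of the 6 factors. With TMM the interaction of nrf1 (0.39) and the replicate 3 shift of znf384l (-0.26) lost their calls. The minimum of 5 FPKM left out znf384l. Mean levels moved by less than 1 SD under every alternative run, as any median or leave-out mean of so few values must. Without replicate 3, the mean of znf281a in MZdgcr8 was 9.12 FPKM, against 13.4 FPKM with it. For znf511 in wild type these means were 12.7 and 9.60 FPKM. The few listed genes limit every scaling estimated from them.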
